A study of Rattus norvegicus with 22 samples.

Results

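Whether BIRB796 alters what cyclic stretch does to gene expression in engineered cardiac tissue was read as the difference of 2 stretch effects, across genes: the effect in tissues given BIRB796 minus the effect in tissues without it. The comparison took 14 of the study's 22 arrays, chosen by their labels. Without the inhibitor, 3 stretched tissues (stretch, replicates 1 to 3) were set against 3 unstretched ones (control, replicates 1 to 3). With it, 4 stretched tissues (stretch with BIRB796) were set against 4 unstretched ones (BIRB796). All tissues were made from ventricle cells of embryonic rats (strain Sprague Dawley, gestational day 14.5), cast in a gel as a cylinder between anchors and cultured for 7 days. From culture day 5, stretch ran at 0.5 Hz and 5% elongation for 48 h, and BIRB796 was given at 10 µM for 48 h. The labels mention no vehicle for the tissues without BIRB796. The cells were a mixed ventricular preparation, so the level of a gene is that of the whole tissue, in which fewer cells of a type and less RNA per cell cannot be told apart. The design text calls the replicates biological but ties none to a litter or culture, so the p-values speak only to the spread among these samples.

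BIRB796 (doramapimod) binds p38 MAPK and holds it in an inactive shape. The p38 kinases answer to mechanical load, cytokines and oxidative stress, and pass the signal to downstream kinases such as MAPKAPK2, which phosphorylates the small heat shock protein HSPB1 and stabilises short-lived messages of growth factors and cytokines. In heart muscle, stretch is known to induce the natriuretic peptides, immediate early genes of the AP-1 family, and ligands of the epidermal growth factor (EGF) receptor such as HBEGF and amphiregulin. The series title speaks of tyrosine kinase inhibition, whereas the treatment text names p38 MAPK as the target.

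The scanner headers place the arrays in sessions and on slides. All 6 arrays without BIRB796 were read in session 1, with the control and the stretch array of the same replicate number together on slide 1, 2 or 3. All 8 arrays with BIRB796 were read in session 3, replicate 1 of both groups on slide 6, stretch with BIRB796 replicates 2 and 3 on slide 8, and the other 4 on slide 9. Each stretch effect therefore lies within a session, but in the difference between the effects BIRB796 and session cannot be told apart. The first principal component held 87.5% of the variance and separated the sessions. Between 82.6% and 91.3% of probes were well above background on the arrays without BIRB796, and between 72.9% and 79.9% on those with it. The median SD of a gene between replicates was 0.257 (log2) in control, 0.366 in stretch, 0.209 in BIRB796 and 0.189 in stretch with BIRB796. All 15 cardiomyocyte markers, 19 of 20 fibroblast markers and 24 of 24 measured macrophage and leukocyte markers were above background on all 14 arrays, as were 17 of 18 endothelial and 14 of 17 epicardial and mesothelial markers.

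In the main fit, which has no slide term, no gene's stretch response differed between tissues with and without BIRB796 at an adjusted p under 0.05. Neither stretch effect taken alone had a gene past that threshold in this fit. Some alternatives, such as slide as a fixed block, called genes for these effects. Gene by gene, the 2 stretch effects correlated weakly. Among the genes described, the growth factor gene Areg had a stretch effect of 2.28 (log2) without BIRB796 and 0.63 with it, and the lipase gene Lpl had -1.47 and 0.02. The sterol enzyme gene Lss had the larger effect in tissues given BIRB796, 0.60 against -0.10.

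In numbers, limma tested 23810 genes. It called 0 for the difference (0% of genes tested), and 822 had an unadjusted p under 0.05, where 5% of the genes tested are 1190.5. The smallest unadjusted p was 0.000198 and the lowest adjusted p 0.9997. For the stretch effect without BIRB796 it also called 0 (0%), with 1891 genes at an unadjusted p under 0.05 and a lowest adjusted p of 0.194. For the stretch effect with BIRB796 it called 0 (0%), with 848 genes at an unadjusted p under 0.05 and a lowest adjusted p of 0.625. The first of these 3 counts of calls moved from 0 to 1 under quantile scaling, where C5h1orf87 was called with a negative difference. The count without BIRB796 was 30 when stretch replicate 2 was left out, 26 under quantile scaling and 22 with slide as a random block. Array weights gave 30 calls for the effect with BIRB796. Leaving out stretch with BIRB796 replicate 1 gave 1 call for that effect, S100a9, and leaving out replicate 3 gave Mrap2. The number of genes at an unadjusted p under 0.05 for the difference was 2538 without stretch replicate 3, 1353 without stretch replicate 2 and 515 without stretch with BIRB796 replicate 2. Without stretch replicate 3 it was also 3928 for the effect without BIRB796 and 1290 for the effect with it. C5h1orf87 and S100a9 were named after their values were seen.

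The precision of these arrays sets what such a result can show. The median standard error of the difference was 0.317 and the median half-width of its 95% interval 0.69, both on the log2 scale. The median size of the difference was 0.199, and 607 genes had a difference beyond 1 in either direction. An adjusted p above 0.05 does not show that the responses were alike, and for many genes the interval holds both 0 and a doubling.

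Across all genes, the stretch effects without and with BIRB796 had a Pearson correlation of 0.134 and a Spearman correlation of 0.115, and 56.1% of genes had the same sign in both. In the brighter 11905 genes Pearson's r was 0.292. These are descriptions across genes, which are not independent replicates. Of the 572 genes with a positive difference at an unadjusted p under 0.05, 449 had a negative stretch effect without BIRB796 and a positive one with it, and 115 were negative in both. Of the 250 genes with a negative difference, 166 had a positive effect without BIRB796 and a negative one with it, and 78 were positive in both. These genes were chosen by the difference of the same effects, which by itself favours opposite signs, so the split cannot show a reversal. In all they were 822, fewer than the 1190.5 that 5% of the genes tested make. The stretched and unstretched arrays did not overlap for 8.73% of genes without BIRB796 (1096 above, 982 below) and for 6.17% with it (1042 above, 426 below). Groups of 3 separate fully by chance more often than groups of 4, so neither these shares nor the overlap of single genes can be set against each other between the arms.

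**Figure D1:**
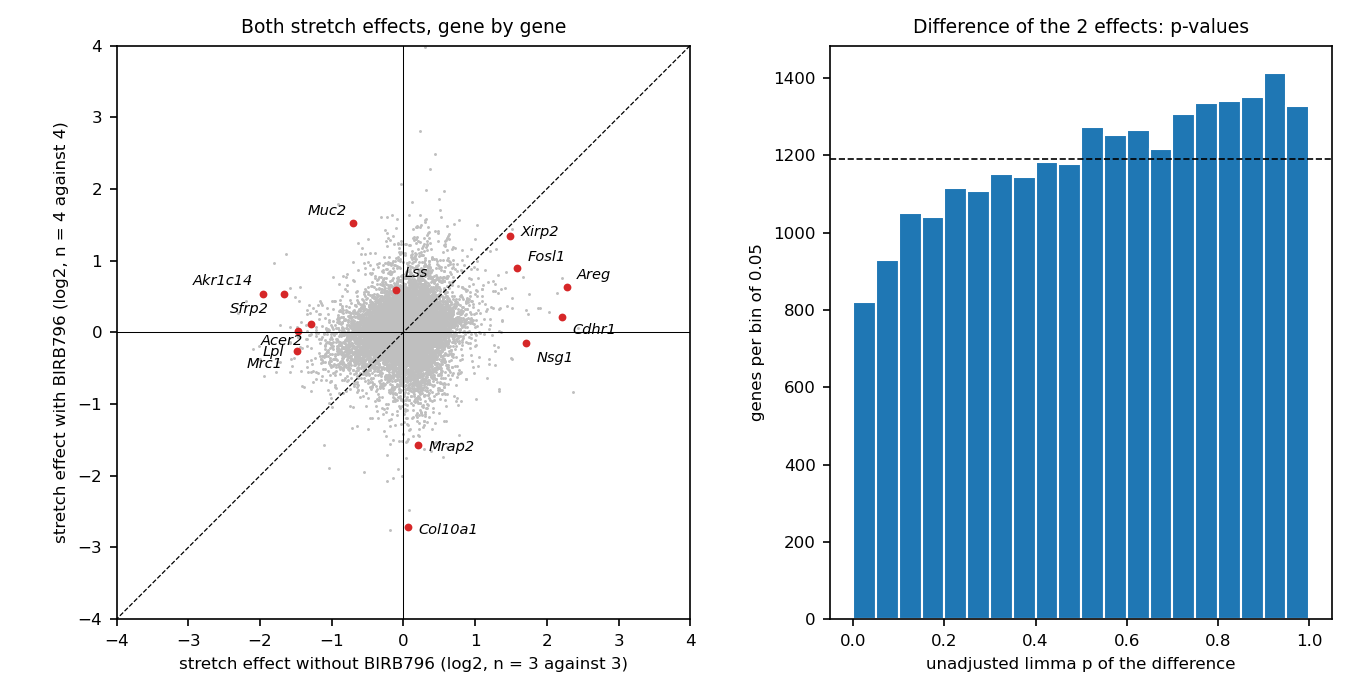
The left panel plots each gene's stretch effect without BIRB796 (horizontal axis, log2) against its effect with BIRB796 (vertical axis, log2), with equality as a dashed line and 1 gene beyond the plotted range of 4. The right panel counts genes by unadjusted limma p of the difference in bins of 0.05, with a dashed line at the 1190.5 genes per bin that a flat distribution gives. The cloud is broad on both axes with r of 0.134, and the lowest bin, with 822 genes, lies under the line.

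Levels below are log2 signals relative to the 75th percentile of the same array. A level of 0 equals that percentile, and a difference of 1 is a doubling. The SE of a stretch effect comes from 1 spread estimate per gene over all 4 groups. SEs of both arms therefore differ only by the number of arrays and do not show each arm's own spread. The genes described were taken by rule: those with the smallest p in each direction, a list of stretch, p38, contractile and cell type genes, and the list members with the smallest p.

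Stretch genes are taken first, beginning with the EGF family. Areg encodes amphiregulin, a ligand of the EGF receptor. Its level was -3.47, -3.19 and -3.95 in the 3 controls and -0.41, -2.20 and -1.16 in the 3 stretched tissues, so every stretched array lay above every control. With BIRB796 the 4 unstretched arrays read -3.94, -3.95, -3.98 and -3.81, and the 4 stretched ones -2.04, -3.91, -3.89 and -3.30. Replicates 1 and 4 of the latter stood above every unstretched array, while replicates 2 and 3 lay within their range, so the groups overlapped. The stretch effect of Areg was 2.28 (SE 0.49) without BIRB796 and 0.63 (SE 0.43) with it. The difference was -1.65 (95% interval -3.06 to -0.23), a stretch ratio 3.13 times smaller with BIRB796, with limma's unadjusted p of 0.0262 and adjusted p of 0.9997. Slide by slide, the stretch effect was 3.06, 0.99 and 2.79 on slides 1, 2 and 3, 1.90 on slide 6 and 0.61 on slide 9. When both BIRB796 arrays of slide 6 were left out, the effect with BIRB796 was 0.21 and the difference -2.07 (95% interval -3.29 to -0.85), still with 0 genes called over all genes. With slide as a fixed block the difference was -1.15 with an unadjusted p of 0.0796 in limma.

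The Areg promoter is printed because this gene had the largest stretch effect without BIRB796 among the stretch and p38 genes listed, and because, of 10 promoters searched for the motifs given here, it was the one with a match, a cyclic AMP response element, the site of the CREB and ATF family that p38 signalling can reach. The other 9, those of Nppa, Nppb, Cdhr1, Npr3, Sfrp2, Acer2, Fosl1, Hbegf and Ptgs2, held neither motif within their windows. The stretch runs from 150 bases to 1 base before the RefSeq start, at chr14:17265642-17265791 on the minus strand of assembly GRCr8, upstream of the transcript. The capitals mark the element.
Areg promoter: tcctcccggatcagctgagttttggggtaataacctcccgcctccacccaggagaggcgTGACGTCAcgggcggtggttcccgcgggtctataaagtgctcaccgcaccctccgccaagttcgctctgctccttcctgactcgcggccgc
The motif TGACGTCA, searched on both strands, starts 91 bases before the start site, and 1.83% of 33469 rat promoters of the same RefSeq table hold it within 250 bases before to 50 after the start. The AP-1 motif TGANTCA, held by 7.33% of those promoters, has no match in the Areg window. A match is a description of the letters and says nothing of what binds there.

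Both other ligands described also had negative differences. Ereg, which encodes epiregulin, had a stretch effect of 1.37 (SE 0.44) without BIRB796 and 0.16 (SE 0.38) with it. Its difference was -1.21 (95% interval -2.47 to 0.05), and -0.46 (log2) with normexp and quantile scaling. Hbegf, which encodes the heparin-binding EGF-like factor, had 0.79 (SE 0.43) and -0.05 (SE 0.37), a difference of -0.84 (95% interval -2.08 to 0.40). In both genes replicate 1 of stretch with BIRB796 read highest of its group, at -5.73 for Ereg and -0.09 for Hbegf, against -7.65 to -6.80 and -1.87 to -1.54 in the other 3. Egfr, the receptor, went the other way: 0.47, 0.45 and 0.62 in control, -0.50, 0.19 and -0.72 in stretch, -0.16 to 0.19 in BIRB796 and -0.13 to 0.16 in stretch with BIRB796. All 3 stretched arrays lay below the controls without BIRB796, while the groups with it overlapped. Its difference was 0.89 (95% interval 0.32 to 1.46, unadjusted p 0.00514). Over the 14 measured EGF ligands and receptors, 5 differences were positive and 9 negative with a median of -0.34, against a median of 0.01 and 51.0% positive over all genes, and 0 were called. The list's median difference was -0.71 without stretch replicate 3, -0.15 without stretch replicate 1, -0.21 and -0.05 without control replicates 2 and 3, and -0.03 over the 11 members above background on all 14 arrays.

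Fosl1 encodes FRA-1, an AP-1 partner that accumulates after sustained signalling. It read -4.65, -4.44 and -4.19 in control and -2.31, -3.35 and -2.87 in stretch. With BIRB796 it read -6.19, -5.94, -5.26 and -5.45 unstretched and -3.87, -5.20, -5.07 and -5.09 stretched. Here the stretched arrays lay above the unstretched ones in both arms. The effects were 1.59 (SE 0.37) and 0.90 (SE 0.32), with a difference of -0.68 (95% interval -1.76 to 0.39). On slide 6 the effect was 2.32, against 2.34 on slide 1, and on slide 9 it was 0.45. Without the BIRB796 arrays of slide 6 the effect with BIRB796 was 0.43 and the difference -1.16 (95% interval -1.98 to -0.33). With slide as a fixed block the difference was -0.38 (unadjusted limma p 0.521).

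Fos and Egr1, fast immediate early genes, did not share that order, unlike most of their list. Fos had stretch effects of -0.61 (SE 0.40) without and -0.26 (SE 0.35) with BIRB796, and Egr1 had -0.50 (SE 0.24) and -0.22 (SE 0.21). The difference of Fos was 0.34 and that of Egr1 0.28, both with intervals across 0, and both turned slightly negative without the BIRB796 arrays of slide 6 (-0.03 and -0.04). Ptgs2, the inducible cyclooxygenase whose message p38 stabilises, had effects of 1.06 (SE 0.47) and 0.27 (SE 0.41), a difference of -0.79 (95% interval -2.15 to 0.57). That of Ptgs2 was -1.22 without stretch with BIRB796 replicate 1, -1.26 (95% interval -2.36 to -0.15) without both BIRB796 arrays of slide 6, -0.45 without control replicate 3 and -0.23 with normexp. Il1b, a macrophage cytokine, had -1.08 (SE 0.32) and -0.29 (SE 0.28), a difference of 0.79 (95% interval -0.13 to 1.72). Over 23 measured immediate early and AP-1 genes, 15 had a positive stretch effect without BIRB796 and 8 with it. The difference was positive in 5 of the 23, with a median of -0.27 and 0 called.

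**Figure D2:**
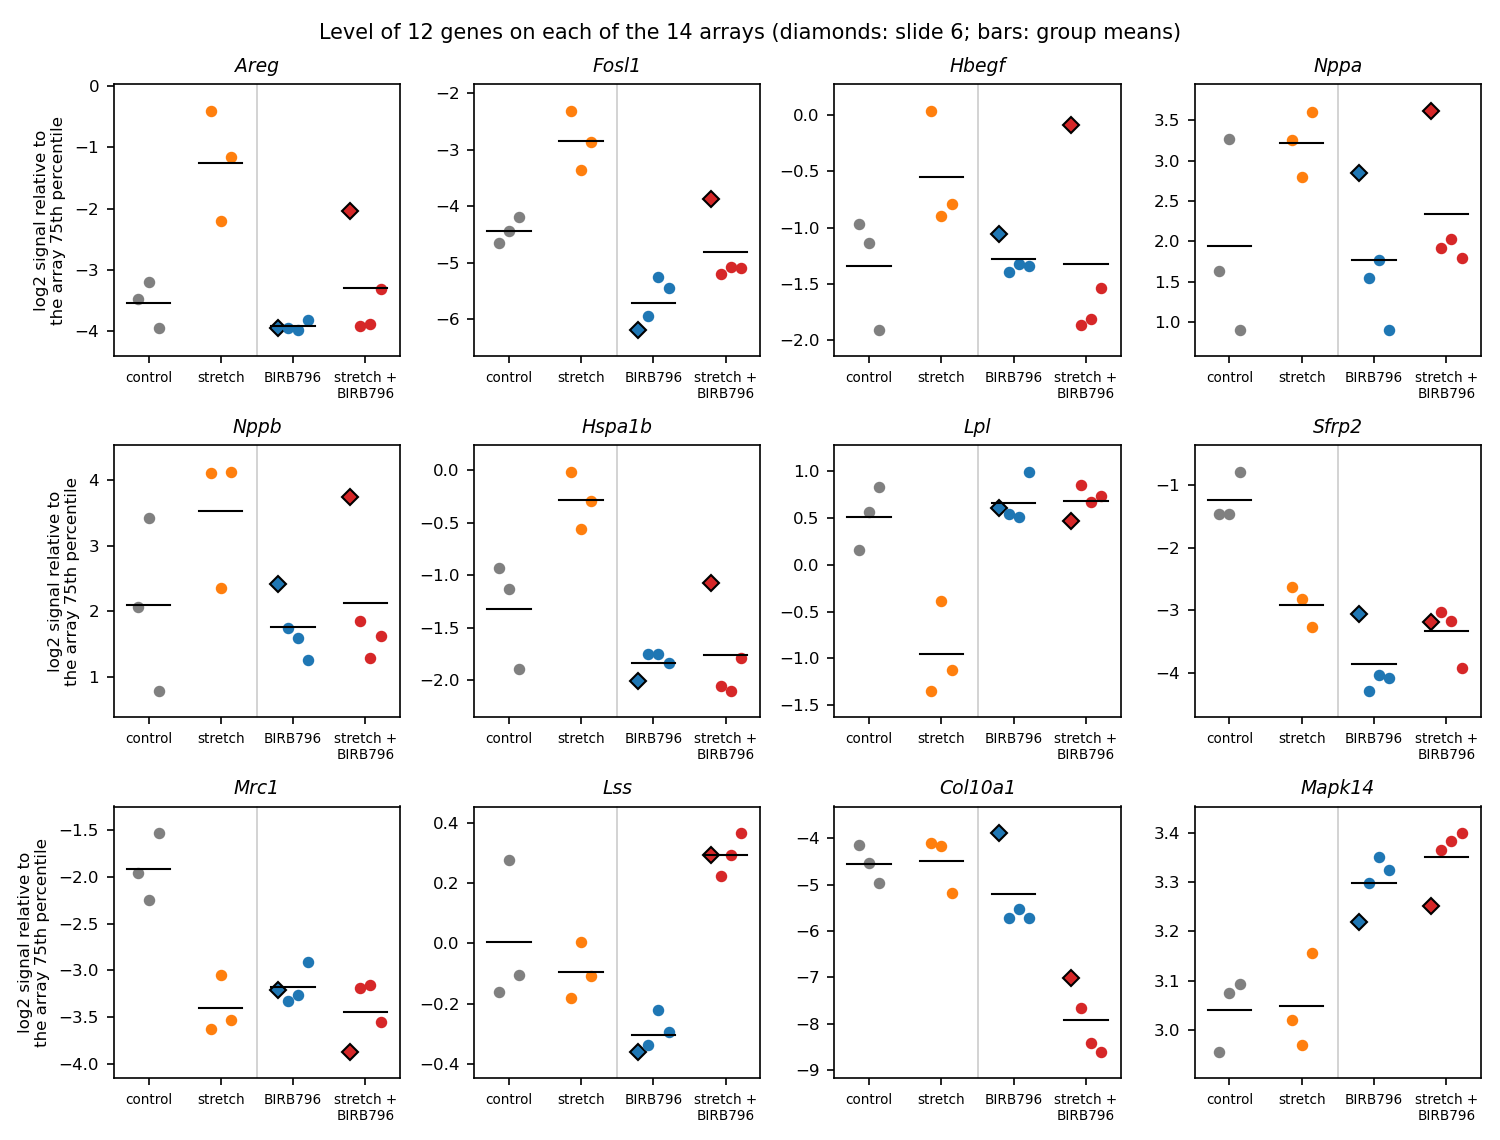
Each panel plots the level of 1 gene (log2 relative to the array's 75th percentile) on the 14 arrays by group, with bars at group means and diamonds for the arrays of slide 6. The vertical scales differ between panels and do not start at 0. In Areg, Fosl1, Hbegf, Nppa, Nppb and Hspa1b the slide 6 array of stretch with BIRB796 stands above the other 3 of its group, in Areg at -2.04 against -3.91 to -3.30, while in Lpl and Lss the groups with BIRB796 are tight.

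The natriuretic peptides, secreted by strained heart muscle, varied widely between tissues. Nppa, the atrial peptide gene, read 1.64, 3.27 and 0.91 in control, 3.25, 2.79 and 3.60 in stretch, 2.85, 1.54, 1.77 and 0.90 in BIRB796 and 3.62, 1.92, 2.03 and 1.80 in stretch with BIRB796. Groups overlapped in both arms with control replicate 2 and both slide 6 arrays high in their groups. Its effects were 1.28 (SE 0.65) and 0.57 (SE 0.56), with a difference of -0.70 (95% interval -2.57 to 1.16). Nppb, the brain peptide gene, had 1.44 (SE 0.75) and 0.37 (SE 0.65), with a difference of -1.07 (95% interval -3.22 to 1.08). Without control replicate 2 the differences of Nppa and Nppb were -1.37 and -1.73, and without control replicate 3 they were -0.19 and -0.42. For Nppb the stretch effect was 2.04, -1.07 and 3.34 on slides 1, 2 and 3, then 1.34 on slide 6 and 0.08 on slide 9.

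Other load-responsive genes differed among themselves, none past the threshold. Ankrd1, a titin-associated repeat protein, had effects of 0.60 (SE 0.34) and 0.15 (SE 0.30). Tnc, which encodes the matrix protein tenascin-C, had 1.18 (SE 0.40) and 0.70 (SE 0.35), and its stretched arrays lay above the unstretched ones with BIRB796 but overlapped them without it. Xirp2, a protein of the intercalated disc, had an effect of similar size in both arms, 1.49 (SE 0.51) and 1.34 (SE 0.45), with a difference of -0.15 (95% interval -1.63 to 1.33). Postn, which encodes the matrix protein periostin, had 0.18 (SE 0.22) and 0.44 (SE 0.19), and Gdf15, a stress-induced cytokine, 0.41 (SE 0.35) and 0.59 (SE 0.30). Edn1, the endothelin precursor gene, had -0.58 (SE 0.49) and -0.80 (SE 0.42). Of the 22 measured cardiac stretch and hypertrophy genes, 18 had a positive stretch effect without BIRB796 (median 0.27) and 12 with it (median 0.11), against medians of 0.06 and 0.05 over all genes. In 5 of them the difference was positive, the median difference was -0.28, and 0 were called. The mean log2 level of this list was 2.06 in stretch with BIRB796 replicate 1 and 1.28 to 1.33 in the other 3 replicates. With array weights, which lower the share of the more variable arrays, the median difference of the list was 0.02, and without control replicate 3 it was -0.04.

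Genes of the contractile apparatus had small differences. The difference was 0.15 for Myh6, -0.10 for Myh7, -0.12 for Tnnt2, 0.04 for Actc1 and -0.32 for Acta1, which encode the cardiac myosin heavy chains, cardiac troponin T and the cardiac and skeletal actins. For the first 4 of these, the 95% intervals stayed within -0.68 to 0.61. All 5 took the other sign under some alternative. Myl7, the atrial myosin light chain, read 5.58, 5.82 and 5.69 in control and 5.12, 5.18 and 5.32 in stretch, a stretch effect of -0.49 (SE 0.13). With BIRB796 the effect was -0.27 (SE 0.11). The difference was 0.21 (95% interval -0.16 to 0.59). Sln, which encodes sarcolipin, the atrial inhibitor of the calcium pump, read -3.27 to -2.12 in control and -1.60 to -1.46 in stretch, with no overlap. In session 3 it read far higher, 1.78 to 2.54 in BIRB796 and 1.32 to 2.19 in stretch with BIRB796. On the arrays compared, the inhibitor and the session cannot be told apart in this shift. Control arrays without BIRB796 were also read in session 3, and whether they share the high level was not tested. The difference of Sln was -1.11 (95% interval -2.02 to -0.20, unadjusted limma p 0.0213).

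Of the p38 pathway, the genes of the kinase itself and of its substrate kinase had effects near 0. Mapk14, which encodes p38 alpha, the main target of BIRB796, had stretch effects of 0.01 (SE 0.10) and 0.05 (SE 0.08), with a difference of 0.05 (95% interval -0.24 to 0.33). Mapkapk2, its substrate kinase, had -0.08 (SE 0.11) and -0.02 (SE 0.09), with a difference of 0.06 (95% interval -0.26 to 0.37). Their messages do not report the activity of the kinases, which was not measured. Among the upstream kinases, Map2k3 had 0.49 (SE 0.14) and 0.18 (SE 0.12), and Map2k6 had -0.58 (SE 0.27) and -0.47 (SE 0.23). Hspb1, the small heat shock protein downstream of MAPKAPK2, had 0.55 (SE 0.24) and 0.25 (SE 0.21). Dusp1, the phosphatase that switches p38 off, had 0.16 (SE 0.42) and -0.30 (SE 0.36). Spry1, a feedback inhibitor of receptor tyrosine kinase signalling, had -0.94 (SE 0.22) and -0.37 (SE 0.19), a difference of 0.57 (95% interval -0.06 to 1.19).

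Map3k6, an upstream kinase that can activate the p38 and JNK cascades, was the member of this pathway with the smallest p. It read -1.11, -1.37 and -1.47 in control, -0.19, -0.53 and -0.40 in stretch, -0.99, -0.81, -0.97 and -0.92 in BIRB796, and -0.46, -0.78, -0.80 and -0.61 in stretch with BIRB796. Stretched arrays lay above unstretched ones in both arms, by 0.94 (SE 0.14) without the inhibitor and by 0.26 (SE 0.12) with it. The slides agree in sign, with 0.92, 0.83 and 1.07 on slides 1 to 3, 0.52 on slide 6 and 0.29 on slide 9. The difference was -0.68 (95% interval -1.08 to -0.28, unadjusted p 0.0029). Of 32 measured p38 pathway genes, 14 differences were positive and the median was -0.04, close to that of all genes, with 0 called.

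Stress genes described here had the smaller stretch effect with BIRB796. Hspa1b encodes an inducible HSP70, and a near-identical neighbour, Hspa1a, may share its probe signal. It read -0.93, -1.13 and -1.90 in control and -0.01, -0.55 and -0.29 in stretch, with no overlap. With BIRB796 it read -2.004 to -1.75 unstretched and -1.07, -2.06, -2.10 and -1.79 stretched, so that only the slide 6 array stood above. The difference was -0.95 (95% interval -1.78 to -0.12, unadjusted p 0.0285), -1.24 without the BIRB796 arrays of slide 6, and -0.66 with slide as a fixed block (unadjusted p 0.0828), both in limma. Srxn1, which encodes sulfiredoxin, had effects of 1.36 (SE 0.28) and 0.61 (SE 0.24), and Nqo1, a quinone reductase of the same NRF2 programme, had 1.25 (SE 0.47) and 0.72 (SE 0.41). Me1, the cytosolic malic enzyme, had 0.63 (SE 0.15) and 0.04 (SE 0.13), a difference of -0.58 (95% interval -1.01 to -0.15). Of 22 measured NRF2 genes, 18 had a positive effect in each arm, with medians of 0.28 and 0.15, 5 had a positive difference, and 0 were called.

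Lss had an effect of -0.10 without BIRB796. The other positive differences with the smallest p-values came from genes with negative mean stretch effects without BIRB796 and positive ones with it. On slide 6 alone the effect was negative for Acer2 (-0.20), Akr1c14 (-0.25), Sfrp2 (-0.13), Lpl (-0.15) and Bach2 (-0.04). It was positive there for Npr3, Lypd1, Muc2, Akr1c15 and Lss. On slide 9 each of these genes was positive, at 0.04 to 0.05 for Npr3, Acer2 and Lpl. A positive difference does not mean a higher level. Mean Acer2 in stretched tissues was -1.11 with BIRB796 and -0.36 without it, and mean Sfrp2 was -3.33 and -2.91, across sessions. Acer2, which encodes an alkaline ceramidase, read 0.55, 0.86 and 1.35 in control and -0.56, -0.07 and -0.46 in stretch. With BIRB796 it read -1.06, -1.34, -1.16 and -1.36 unstretched and -1.25, -0.86, -1.09 and -1.23 stretched, overlapping groups that both lie below the control of session 1. The stretch effects were -1.29 (SE 0.20) and 0.12 (SE 0.17), and the difference of 1.40 (95% interval 0.82 to 1.99) had the smallest unadjusted p of all genes, 0.000198.

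Lpl encodes lipoprotein lipase, which releases fatty acids for the heart. It read 0.15, 0.56 and 0.83 in control and -1.35, -0.38 and -1.13 in stretch, but 0.61, 0.54, 0.51 and 0.99 in BIRB796 and 0.46, 0.86, 0.67 and 0.74 in stretch with BIRB796. Here the unstretched groups of both sessions and the stretched group with BIRB796 share a range, and the stretched tissues without it lie apart. The effects were -1.47 (SE 0.25) and 0.02 (SE 0.21), with a difference of 1.48 (95% interval 0.77 to 2.19, unadjusted p 0.000654). Of 32 measured genes of fatty acid uptake and oxidation, 15 differences were positive with a median of -0.03, and Lpl was the only member at an unadjusted p under 0.05.

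Sfrp2, which encodes a secreted modulator of WNT signalling, read -1.46, -1.46 and -0.79 in control, -2.63, -2.83 and -3.27 in stretch, -3.06, -4.29, -4.03 and -4.08 in BIRB796, and -3.19, -3.03, -3.17 and -3.92 in stretch with BIRB796. The unstretched tissues with BIRB796 were the lowest of the 4 groups, and their stretched partners overlapped them. The difference was 2.21 (95% interval 1.24 to 3.17). Npr3, the receptor that clears natriuretic peptides, had effects of -1.22 (SE 0.23) and 0.30 (SE 0.20), a difference of 1.52 (95% interval 0.85 to 2.19). Lypd1, a lipid-anchored protein of the LY6 family, had -0.92 (SE 0.18) and 0.24 (SE 0.16), a difference of 1.16 (95% interval 0.64 to 1.68).

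Akr1c14 encodes a steroid dehydrogenase and Akr1c15 an aldo-keto reductase of the same family, whose members resemble each other in sequence, so shared probe signal was not tested. Akr1c14 read -4.87, -4.91 and -4.78 in control and -7.16, -5.88 and -7.38 in stretch, where only 1 of 3 arrays was well above background. With BIRB796 it read -5.67 to -5.15 unstretched and -5.56 to -4.41 stretched. Its difference of 2.49 (95% interval 1.42 to 3.57) rests on dim signal in the stretched tissues, and was 0.80 with normexp and quantile scaling. Akr1c15 had effects of -0.85 (SE 0.30) and 0.79 (SE 0.26), a difference of 1.64 (95% interval 0.79 to 2.49). Bach2, which encodes a transcriptional repressor, also had opposite signs in the arms, -0.43 (SE 0.15) against 0.41 (SE 0.13), a difference of 0.84 (95% interval 0.41 to 1.26).

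A further 3 genes of small p taken from lists had the more negative stretch effect without BIRB796. F3, tissue factor, had effects of -1.34 (SE 0.29) and -0.20 (SE 0.25). Mylk, the smooth muscle myosin light chain kinase, had -1.08 (SE 0.29) and -0.15 (SE 0.25), and its difference of 0.93 had an unadjusted limma p of 0.0298, or 0.126 with slide as a fixed block. Their lists did not share the order: of 17 measured smooth muscle and pericyte markers, which hold Mylk, 5 differences were positive with a median of -0.31, and of 17 measured YAP and TAZ targets, which hold F3, 7 were positive with a median of -0.06. Nid2, a basement membrane nidogen, had -0.64 (SE 0.15) and -0.11 (SE 0.13). In all 3 the stretched arrays lay below the controls without BIRB796, as for 982 of 23810 genes, and overlapped the unstretched arrays with it. The choice by p favours this pattern, and overlap cannot be compared between the arms. Gata6, a transcription factor of heart and mesothelium, had -0.67 (SE 0.24) and 0.39 (SE 0.21), a difference of 1.05 (95% interval 0.37 to 1.74).

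A smaller group had its larger stretch effect in the tissues given BIRB796. Lss encodes lanosterol synthase, which closes the sterol ring. It read -0.16, 0.28 and -0.11 in control and -0.18, 0.00 and -0.11 in stretch, groups that overlap. With BIRB796 it read -0.36, -0.34, -0.22 and -0.29 unstretched and 0.29, 0.22, 0.29 and 0.37 stretched, with a clear gap. The stretch effect with BIRB796 was 0.60 (SE 0.11), 0.65 on both slide 6 and slide 9, against -0.10 (SE 0.12) without. The difference was 0.70 (95% interval 0.34 to 1.05, unadjusted p 0.00106).

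The other genes of sterol synthesis were read from a list. All 24 listed genes were measured, and 24 of 24 had a positive stretch effect with BIRB796 (median 0.50), against 17 of 24 without it (median 0.17) and 61.5% and 59.2% of all genes. In 22 of 24 the difference was positive with a median of 0.29, 5 had an unadjusted p under 0.05, and 0 were called. Dhcr7, the last enzyme of a branch to cholesterol, had effects of -0.27 (SE 0.17) and 0.49 (SE 0.14). Insig1, the sterol sensor that holds back the pathway, had -0.03 (SE 0.22) and 0.72 (SE 0.19). Hmgcs1, a synthase early in the pathway, had similar effects in both arms, 0.60 (SE 0.19) and 0.65 (SE 0.16). The mean log2 level of the list was 0.16 to 0.30 in stretch with BIRB796 and -0.35 to -0.15 in BIRB796, without overlap, while control (-0.06 to 0.39) and stretch (0.07 to 0.40) overlapped. Leaving out control replicate 2, the highest control, brought the median difference to 0.13.

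Col10a1 encodes type X collagen, a product of hypertrophic cartilage that is not a usual heart transcript. It read -4.14, -4.54 and -4.96 in control and -4.11, -4.16 and -5.17 in stretch. With BIRB796 it read -3.88, -5.71, -5.51 and -5.72 unstretched and -7.02, -7.67, -8.41 and -8.61 stretched. The effect with BIRB796 was -2.72 (SE 0.46) and that without 0.07 (SE 0.53), with a difference of -2.79 (95% interval -4.33 to -1.25, unadjusted p 0.00194). Slides 6 and 9 gave -3.14 and -2.97. Only 2 of the 4 stretch with BIRB796 arrays read it well above background, so the size of this effect is uncertain. The difference was -1.08 with normexp and quantile scaling. With slide as a fixed block, Col10a1 was 1 of 3 genes called for the effect with BIRB796.

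Mrap2, Fgf16 and Muc2 also had the larger effect with BIRB796, but they were dim, and their sizes fell with normexp. Mrap2, an accessory protein of melanocortin receptors, had effects of 0.21 (SE 0.33) and -1.57 (SE 0.29), and Fgf16, a fibroblast growth factor made by heart muscle, had 0.22 (SE 0.13) and -0.62 (SE 0.11). Mrap2 was well above background on 1 of 4 stretch with BIRB796 arrays, and its difference of -1.78 was -0.38 with normexp, as that of Fgf16 went from -0.84 to -0.30. Muc2, a gel-forming mucin of the gut, read -8.30 to -6.52 in BIRB796 and -6.46 to -5.82 in stretch with BIRB796, an effect of 1.52 (SE 0.34) against -0.70 (SE 0.39) without the inhibitor. Its difference of 2.22 was 0.999 with normexp. Smoc2, a matricellular protein that binds calcium, was bright. Its effects had opposite signs and similar sizes, 0.64 (SE 0.24) without BIRB796 and -0.55 (SE 0.20) with it. The difference of Smoc2 was -1.20, and -1.16 with normexp. Its stretched arrays with BIRB796, at 0.79 to 0.96, all lay below the unstretched ones, at 1.27 to 1.55. Npy1r and Gnat2 also had small p-values with negative differences, but in at least 1 group no array read them well above background, and they are given no value.

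The remaining negative differences were genes high after stretch without BIRB796 and not with it. Cdhr1, a cadherin of photoreceptors, read -2.26, -3.12 and -3.11 in control and 0.09, -0.50 and -1.46 in stretch, and -4.86 to -3.25 and -4.28 to -3.68 in the unstretched and stretched tissues with BIRB796. Its effects of 2.20 (SE 0.46) and 0.21 (SE 0.39) gave a difference of -1.99 (95% interval -3.30 to -0.68, unadjusted p 0.0063). Nsg1, a vesicle protein of neurons, had 1.71 (SE 0.37) and -0.16 (SE 0.32). Crabp2, which carries retinoic acid, had 1.01 (SE 0.24) and -0.18 (SE 0.21). Atp1b1, the beta subunit of the sodium pump, had 0.50 (SE 0.11) and -0.06 (SE 0.10) with narrow groups, a difference of -0.56 (95% interval -0.89 to -0.24). Serpinb2, an inhibitor of plasminogen activators, had 1.05 (SE 0.34) and -0.35 (SE 0.30), a difference of -1.40 (95% interval -2.39 to -0.42). In these 5 genes the stretched arrays lay above the unstretched ones without BIRB796 (3 against 3), as for 1096 of 23810 genes. With it (4 against 4) the groups overlapped. All but Cdhr1 were chosen by a small p of the difference, which favours this pattern, and overlap cannot be compared between the arms.

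**Figure D3:**
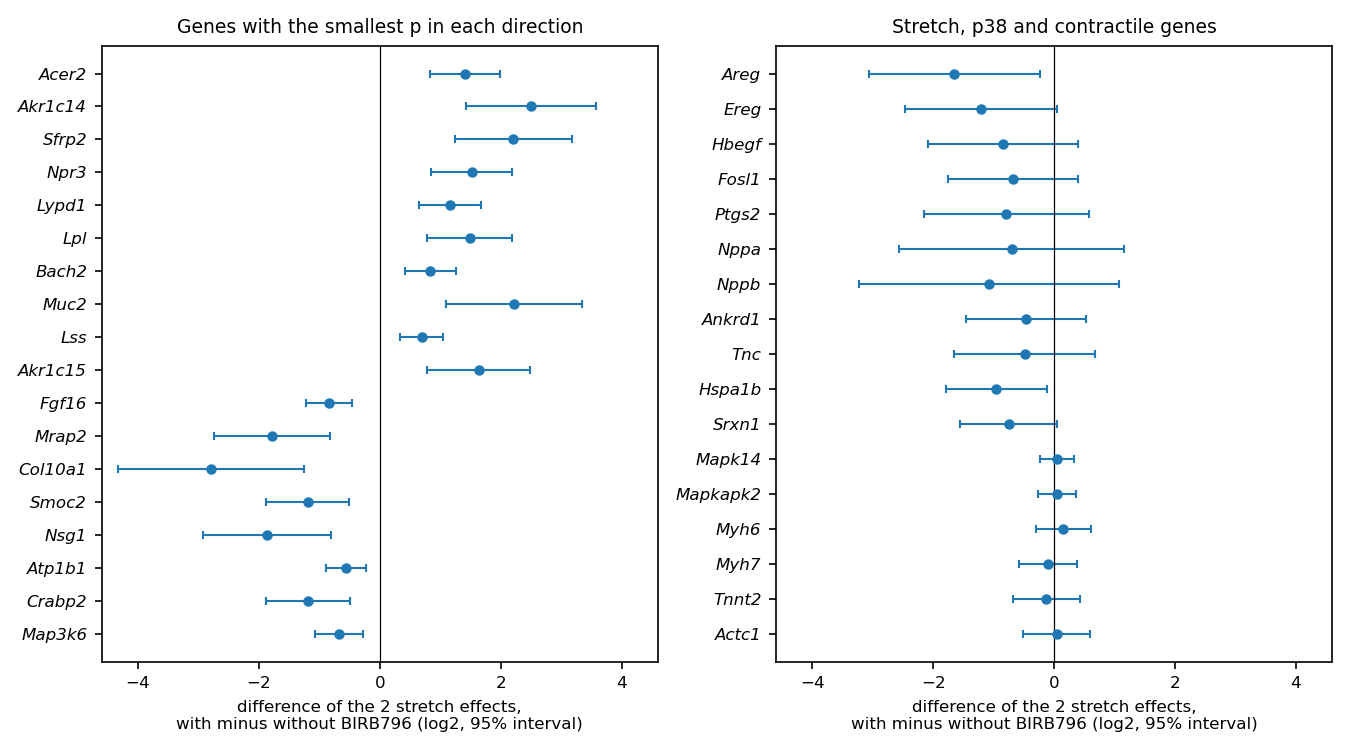
Points give the difference of the 2 stretch effects, with minus without BIRB796 (log2), and bars its 95% interval from the limma fit over 14 arrays. On the left are genes with the smallest p in each direction, whose intervals lie off 0 by that choice, and on the right stretch, p38 and contractile genes. Areg and Hspa1b are the only genes on the right whose interval leaves out 0, and Mapk14 has the narrowest, from -0.24 to 0.33.

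Of the marker lists of non-muscle cells, the epicardial and mesothelial one had the largest median difference, with 0 markers of any such list called. Of 17 measured epicardial and mesothelial markers, 3 had a positive stretch effect without BIRB796 (median -0.42) and 15 with it (median 0.27). The difference was positive in 16, with a median of 0.67 and 2 at an unadjusted p under 0.05. That median was 0.33 with slide as a fixed block and 0.42 with normexp. With BIRB796, the mean log2 level of the list on slide 6 was -3.92 unstretched and -3.97 stretched. On slide 9 it was -3.91, -3.19 and -3.67 unstretched and -3.57 stretched. On neither slide did the stretched array lie above all unstretched ones. The highest stretched arrays, at -3.04 and -3.11, were on slide 8, which held no unstretched tissue given BIRB796. Krt19, a keratin of mesothelium, had -0.42 (SE 0.17) and 0.35 (SE 0.15), a difference of 0.77 (95% interval 0.28 to 1.26). Tcf21, a factor of epicardium-derived cells, had -1.30 (SE 0.69) and 0.26 (SE 0.60). Lrrn4, a mesothelial surface protein, had -0.86 (SE 0.54) and 0.51 (SE 0.47). The summed linear level of the list, in multiples of the array's 75th percentile, ran from 8.18 to 13.0 in control, 7.36 to 17.5 in stretch, 3.73 to 7.52 in BIRB796 and 3.91 to 7.17 in stretch with BIRB796, and the groups overlapped within each arm.

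Macrophage and leukocyte markers had mostly negative stretch effects in both arms. Of 24 measured, 1 had a positive stretch effect in each arm, with medians of -0.67 without and -0.27 with the inhibitor, and the median difference was 0.39. Mrc1, the mannose receptor of tissue macrophages, read -1.96, -2.24 and -1.53 in control and -3.62, -3.04 and -3.53 in stretch, then -3.33 to -2.91 in BIRB796 and -3.87 to -3.15 in stretch with BIRB796. The groups were apart without BIRB796 (3 against 3) and overlapped with it (4 against 4). The difference was 1.23 (95% interval 0.54 to 1.91, unadjusted limma p 0.00212). Cd68, a lysosomal protein of macrophages, had -0.97 (SE 0.30) and -0.38 (SE 0.26), with the stretched arrays below the unstretched ones in both arms. The summed linear level ran from 55.3 to 145 in control, 43.7 to 87.7 in stretch, 130.3 to 175.8 in BIRB796 and 113 to 131 in stretch with BIRB796. With array weights the list's median difference was -0.03, and without a single control or stretch array it ran from 0.09 (without stretch replicate 3) to 0.70 (without control replicate 2). Pecam1, of endothelium, had -0.63 (SE 0.33) and -0.81 (SE 0.29), and 3 of 18 measured endothelial markers had a positive effect in each arm, with medians of -0.36 and -0.29 and a median difference of 0.02. Of 13 measured erythroid markers, 7 had a positive effect in each arm, with medians of 0.03 and 0.05.

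Genes of cell division were the next list by median difference. Of 26 measured mitosis genes, 1 had a positive stretch effect without BIRB796 (median -0.27) and 11 with it (median -0.02), and the difference was positive in 25 with a median of 0.30. Cenpe, a kinetochore motor, had -0.89 (SE 0.28) and 0.29 (SE 0.24), a difference of 1.19 (95% interval 0.38 to 1.99), or 0.48 with normexp. Ccnb2, a mitotic cyclin, had -0.50 (SE 0.18) and 0.04 (SE 0.16). This list rested on stretch replicate 3, whose mean log2 level was -1.25 against -0.60 and -0.42 in the other stretched tissues: without that array the median difference was 0.03.

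Matrix genes had a smaller median. Of 31 measured, 13 had a positive effect without BIRB796 and 21 with it, with a median difference of 0.18. Col1a1, the main fibrillar collagen, had 0.00 (SE 0.20) and 0.22 (SE 0.17). Without stretch replicate 3 the list's median difference was -0.10.

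**Figure D4:**
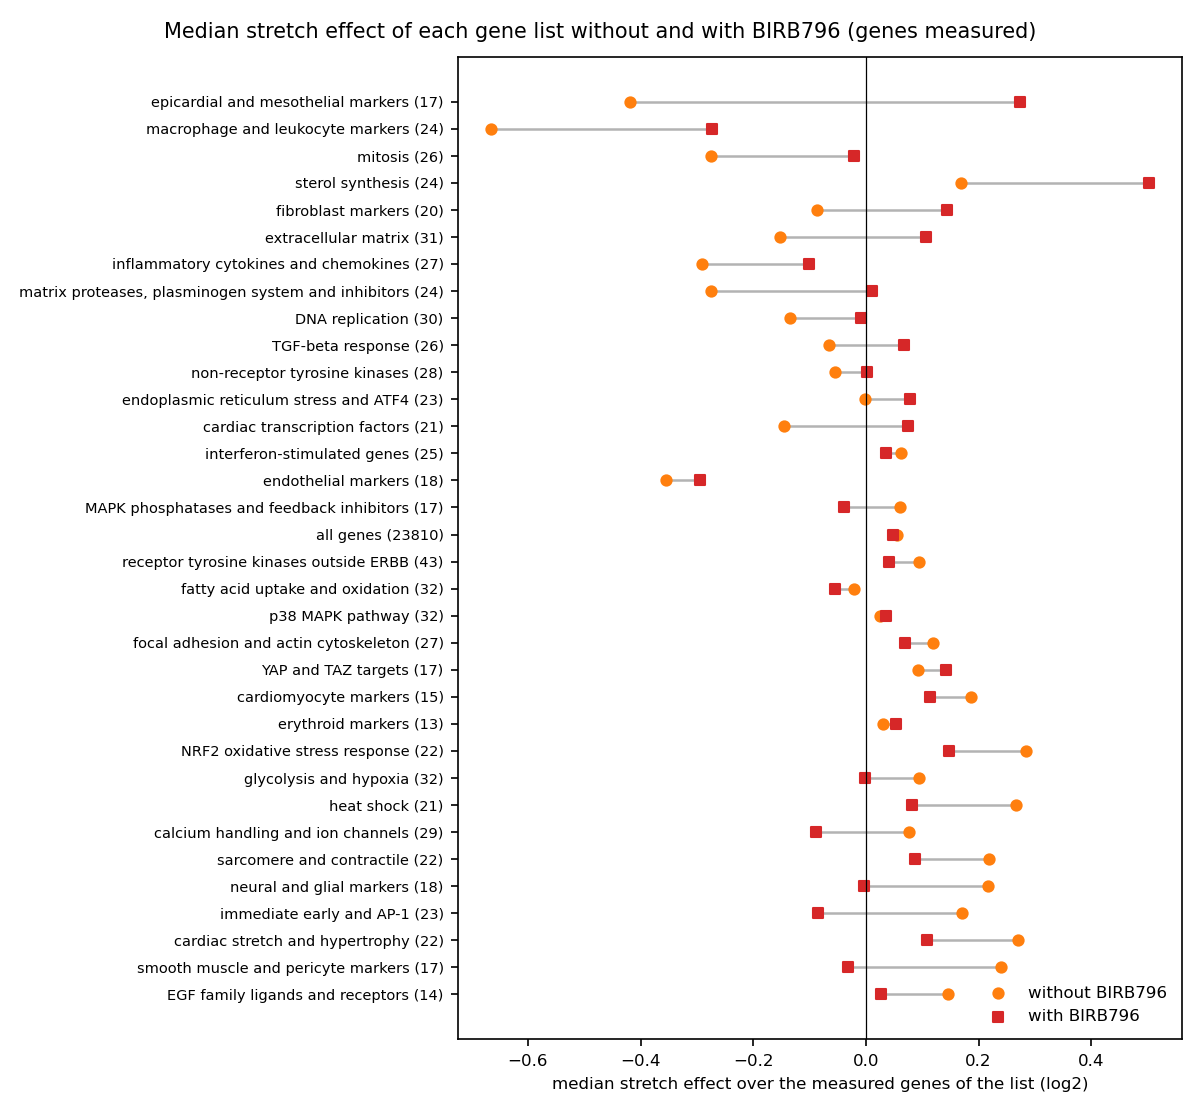
For each gene list (number of measured genes in brackets), circles mark the median stretch effect without BIRB796 and squares that with it, on the log2 scale, ordered by the median difference. The epicardial list spans -0.42 to 0.27 and the sterol list 0.17 to 0.50, while all genes sit at 0.06 and 0.05.

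The other 8 control and stretch arrays, read in sessions 2 and 3, gave lists of stretch genes that took no part in the difference. Their stretch arrays were all in session 2 and their controls all in session 3, so in these lists stretch and session cannot be told apart. Of the 100 genes with the smallest p among those higher in stretch there, 73 had a positive stretch effect without BIRB796 (median 0.14) and 80 with it (median 0.16), against 59.2% and 61.5% of all genes. The median difference over these genes was 0.01. Of the 100 with the smallest p among those lower in stretch, 72 were negative without BIRB796 (median -0.14) and 53 with it (median -0.06), with a median difference of 0.06. No gene of either list was called for the difference.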

How the data were processed

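Each tissue's total RNA was read in 1 colour (Cy3) on an Agilent rat array. Spot intensity in the deposited files is linear and was background-subtracted within each array by Agilent Feature Extraction (versions 10.7.1.1, 10.7.3.1 and 11.0.1.1 across the sessions, per the file headers). A second deposited table gives log2 values by probe, whose columns each followed their own array with a slope of 1 and whose baseline is not given in the sources used here: column medians of the 22 arrays ran from -0.11 to 0.40. It served as an alternative.

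Control spots and flagged outlier spots were left out and saturated spots kept, signals were taken to log2, spots of a probe averaged, and the array's 75th percentile subtracted. Of 30367 probes, 27278 were well above background on at least 3 of the 14 arrays. The probe with the highest mean stood for a gene, which gave 23810 genes. Gene names follow RefSeq's GRCr8 table where a probe's accession (18387 probes), symbol (2186) or synonym (593) was found there, and otherwise the scanner file (9201). No 2 of the 14 arrays agreed within the noise of repeated spots, but some came close. Stretch with BIRB796 replicates 2 and 3 differed by 1.16 times that noise, and BIRB796 replicates 2 and 4 by 1.27 times. Without BIRB796, pairs differed by 2.13 to 3.55 times in control and by 2.61 to 4.82 times in stretch. Whether the close pairs are independent tissues was not tested. The number of arrays limits the precision.

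The 4 groups of 14 arrays were fitted with limma (version 3.58.1, R 4.3.3: linear model, contrasts, moderated test, two-sided, Benjamini-Hochberg over all genes), and the fit was tested on simulated data. Intervals are at 95%, without adjustment. The members, the 33 gene lists and the alternatives were chosen with earlier results of these data known. Named genes were the 10 with the smallest p in each direction, a fixed list, and the list members with the smallest p, of which the text describes those given. Xirp2, Postn, Gdf15, Edn1, Map2k3, Map2k6, Dhcr7, Insig1, Hmgcs1, Tcf21, Lrrn4 and Ccnb2 are list members chosen outside this rule after their values were seen. Il6, of the fixed list, did not pass the filter. Some genes are not reported here. Alternatives changed the scaling, background correction, filter, probe rule, slide and replicate blocks, arrays used, array weights and variance trend. They also left out each array in turn. The alternative called normexp joined normexp background correction with quantile scaling in place of the 75th percentile. It used an offset of 50, which shrinks differences between dim signals, and the median signal, since not all files give the mean. With slide as a fixed block, the effect with BIRB796 rests on slides 6 and 9 alone. Leaving out both BIRB796 arrays of slide 6 was added after seeing the data.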

Additional observations from a re-analysis of the deposited data

Results flagged for a closer look

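In the 2 groups of 4 tissues, 59 genes were checked for an array whose gap to its nearest neighbour took more of the group's range than Dixon's 95% critical value for 4 samples, 118 groups of values in all. Chance flags about 1 in 20, or 5.9 of them. There were 12 such values, and all 12 belonged to the arrays of slide 6: 8 to stretch with BIRB796 replicate 1 and 4 to BIRB796 replicate 1. Genes share arrays, so these are not independent counts.

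In stretch with BIRB796 replicate 1, 6 values were the highest of the group. Ankrd1 read 5.62 against 4.88 to 4.93 in the other 3 arrays (gap 0.934 of the range). Ptgs2 read -5.33 against -7.09 to -6.94 (0.916), Fosl1 -3.87 against -5.20 to -5.07 (0.897) and Nppa 3.62 against 1.80 to 2.03 (0.87). Dusp1 read -2.02 against -3.72 to -3.47 (0.851) and Cdhr1 -3.68 against -4.28 to -4.19 (0.851). The other two were the lowest: Akr1c15 at -1.49 against -0.81 to -0.72 (0.878) and Serpinb2 at -5.48 against -5.10 to -5.03 (0.855).

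In BIRB796 replicate 1, Col10a1 read -3.88 against -5.72 to -5.51 (0.889) and Cenpe -5.28 against -5.79 to -5.71 (0.851), both the highest. Egr1 read -0.14 against 0.36 to 0.45 (0.855) and Serpinb2 -5.73 against -4.62 to -4.42 (0.849), both the lowest. What sets this slide apart was not tested.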

How the results depend on the processing

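The count of 0 genes called for the difference held in 28 of 29 alternatives, the exception being quantile scaling with 1. Leaving out single arrays gave 0 calls for the difference each time, 0 to 30 for the stretch effect without BIRB796 and 0 to 1 for the effect with it. For the effect without BIRB796, quantile scaling gave 26 calls, normexp with quantile scaling 22, slide as a fixed block 9, slide as a random block 22, the variance trend 4 and all 22 arrays without a session term 211. For the effect with BIRB796, slide as a fixed block gave 3, array weights 30, and leaving out both BIRB796 arrays of slide 6 gave 1, S100a9. Genes at an unadjusted p under 0.05 for the difference ranged from 314 (all 22 arrays with session) to 2426 (array weights) outside the single-array omissions.

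The replicate numbers were checked for pairing. Same-numbered arrays deviated together with r of 0.515, 0.160 and 0.581 without BIRB796 and of 0.525, 0.00035, 0.085 and 0.074 with it, so not every pair passed 0.1. With the replicate block 0 genes were called for the difference (1389 at an unadjusted p under 0.05), 1 without BIRB796 and 1 with it (Col10a1).

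Of 59 genes, 45 kept the sign of the difference in all alternatives that gave them a value, which were 28 of 29 for Akr1c14, Muc2, Mrap2 and Col10a1. With all 22 arrays and no session term, other signs were found for Fgf16 (0.15), Fos (-0.73), Egr1 (-0.068), Mapkapk2 (-0.0053), Acta1 (0.26), Myh7 (0.14), Tnnt2 (0.092), Pecam1 (0.25) and Sln (0.55). Array weights did so for Ankrd1 (0.056), Acta1 (0.27), Myh7 (0.10) and Nqo1 (0.18), and the deposited table for Mapk14 (-0.014), Mapkapk2 (-0.0041) and Actc1 (-0.015). Quantile scaling gave Myh6 -0.080, normexp gave Myh6 -0.10 and Actc1 -0.10, and the median of a gene's probes gave Mapkapk2 -0.021. Without the BIRB796 arrays of slide 6, Fos was -0.028, Egr1 -0.036 and Actc1 -0.047. Over single omitted arrays the ranges that crossed 0 were -0.083 to 0.55 for Fos, -0.013 to 0.14 for Mapkapk2, -0.73 to 0.08 for Acta1, -0.25 to 0.12 for Myh7, -0.27 to 0.092 for Tnnt2, -0.078 to 0.24 for Actc1 and -0.48 to 0.10 for Pecam1. Of 32 of these genes with an unadjusted limma p under 0.05 for the difference, slide as a fixed block took 3 above it (Areg, Hspa1b and Mylk), normexp 1 (Fgf16) and leaving out the BIRB796 arrays of slide 6 1 (Mylk). The difference moved by over 1.5 times for 27 of 59 genes under at least 1 single omitted array, for 16 with normexp, 9 without slide 6 and 4 with the slide block. The cause was not tested. Dim probes, small groups and the overlap of session with BIRB796 limit all of these values.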
